A study of Mus musculus with 4 samples.

Results

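The genes of the cornified envelope and of terminal epidermal differentiation were followed in mouse hair follicle stem cells (HFSCs) kept in culture for 10 or 48 passages. The set held every gene symbol that begins with Sprr or Lce, together with named genes for envelope scaffold proteins, filaggrin-type proteins, transglutaminases, suprabasal keratins, secreted proteins of the upper epidermis, caspase-14 and the proteins of corneodesmosomes. It came to 57 of the 24346 gene symbols measured, and 41 of the 57 lie on chromosome 3. Flg, which encodes filaggrin, belongs to the set by name but was not analysed here.

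HFSCs were epithelial cells of the dorsal skin of 4-week-old adult C3H/HeN mice, sorted for CD49f (α6 integrin) and CD34, the surface proteins that mark the bulge of the hair follicle. They were grown without feeder cells in the serum-free medium M-CnT, with no other agent, and passaged once a week. RNA was sequenced from 2 libraries after 10 passages (10p-HFSCs) and from 2 libraries after 48 passages (48p-HFSCs), and both groups share strain, sort and medium. The labels do not say whether the 2 libraries of a group came from separate cultures, so the p-values measure the spread between libraries, which may be technical, and all the libraries are of sorted cells that were then cultured, not of the follicle itself.

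Keratinocytes that leave the basal layer stop dividing, exchange keratins 5 and 14 for keratins 1 and 10, and in the granular layer build a cornified envelope under the plasma membrane. Involucrin, envoplakin and periplakin form its first scaffold, loricrin, small proline-rich (SPRR) proteins and late cornified envelope (LCE) proteins thicken it, and transglutaminases link them into an insoluble shell. Many of these proteins are encoded side by side in the epidermal differentiation complex, and SPRR1 and SPRR2 genes are also known to be switched on in stressed, wounded or cultured epithelial cells without full cornification.

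Of the 57 genes, 12 were called higher in 48p-HFSCs than in 10p-HFSCs and none was called lower. The 12 were 6 SPRR genes (Sprr1a, Sprr1b, Sprr2a3, Sprr2h, Sprr2i and Sprr2j-ps), 2 LCE genes (Lce1b and Lce1f), the envelope scaffold gene Evpl, the transglutaminase gene Tgm1, the secreted-protein gene Sbsn and the corneodesmosome gene Cdsn. Other hallmark genes of epidermal differentiation were listed at 0 in all 4 libraries, among them Lor (loricrin), Krt1 and Krt10 (keratins of the spinous layer), Flg2 and Hrnr. Summed over the 57 genes, the expression level was 146 and 157 FPKM in 10p-HFSCs and 681 and 796 FPKM in 48p-HFSCs, where FPKM are sequenced fragments scaled to exon length and to the mapped fragments of the library. The ratio of the group means was 4.88, and 3.38 after each library was rescaled to the same summed FPKM (TPM). In bulk RNA, more cells that express a gene and more of its RNA per cell cannot be told apart.

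These counts come from a test over the 11018 genes that reached 1 FPKM in 2 or more libraries. Values were compared as log2(FPKM + 1) with limma, and a gene was called at a Benjamini-Hochberg adjusted p under 0.05 if its log2 difference was also 1 or more. This scale understates changes of weakly expressed genes. Only 16 of the 57 genes passed the limit on FPKM, and all 12 calls are among them. Of all genes tested, 10.8% were called higher and 9.15% lower. The 2 libraries of 48p-HFSCs both lay above both libraries of 10p-HFSCs for 13 of the 16 genes and both lay below for none, against 31.7% and 34.3% of all genes tested. The median log2 difference was 1.71 for the 16 genes and -0.03 for all genes tested.

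Part of these counts and of the median follows from the limit itself. An FPKM under 1 in both libraries of 10p-HFSCs was found for 7 of the 16 genes. These entered the test only because they were high in 48p-HFSCs, and all 7 were called higher. Their lack of overlap between the groups and their positive differences were fixed by the limit. The shares of all genes without overlap were not matched for this. Among the 7 genes at 1 FPKM or more in both libraries of 10p-HFSCs, Sprr1b, Sprr2j-ps, Evpl and Sbsn were called higher, and 6.04% of the 10178 genes tested that met the same condition were called higher. Of the remaining pair, Sprr2h was called higher and Krtdap was not called. Leaving out either library of 10p-HFSCs left none of the 16 genes called by limma, with 11 and 10 of them higher at an unadjusted p under 0.05. In those fits the lone library is assumed to vary as the others do, and among all genes tested only 35 and 36 were called higher. For 1 gene alone, 2 libraries per group allow no two-sided exact permutation p smaller than 0.33.

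**Figure D1:**
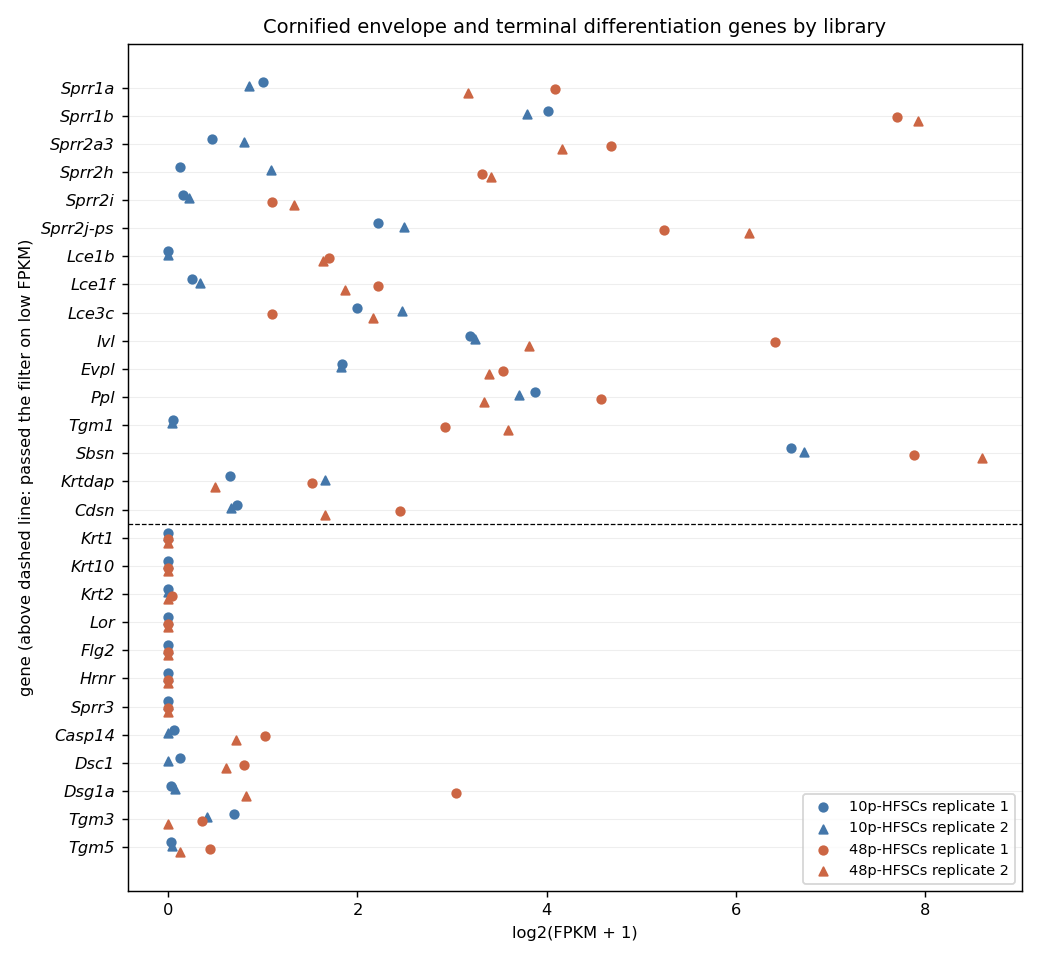
Expression level of 28 of the genes in each library, as log2(FPKM + 1), for the 16 genes that passed the limit on FPKM (above the dashed line) and 12 that did not (below it). The SPRR genes above the dashed line and Tgm1 lie further right in both libraries of 48p-HFSCs than in both of 10p-HFSCs. Lor, Krt1 and Krt10 are at 0 in every library.

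The SPRR genes encode short proline-rich proteins that transglutaminases use as cross-bridges between other envelope proteins. Of 16 SPRR genes, 6 were tested and all 6 were called higher, against 10.8% of all genes tested. Sprr1a, Sprr2a3 and Sprr2i were under 1 FPKM in both libraries of 10p-HFSCs and so entered the test only through 48p-HFSCs. Sprr1b had the highest level of the family, with an FPKM of 15.1 and 12.8 in 10p-HFSCs and of 208 and 242 in 48p-HFSCs. The means were 13.97 ± 1.62 and 225 ± 24.6 (SD, n = 2), a 16.1-fold ratio and a log2 difference of 3.92 (SE 0.26, limma adjusted p = 0.00092). The groups were far apart relative to the spread within them, and by rank of FPKM within a library Sprr1b moved from places 4786 and 5230 to places 387 and 563.

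Sprr1a, in the same cluster, was close to 1 FPKM in 10p-HFSCs (0.998 and 0.813) and was 15.9 and 8.01 in 48p-HFSCs. Its log2 difference was 2.70 (SE 0.37, limma adjusted p = 0.0064). Its libraries of 48p-HFSCs were unlike each other, but the groups did not overlap. Sprr2j-ps, whose symbol marks it as a pseudogene while GENCODE lists it as protein-coding, had an FPKM of 3.63 and 4.64 in 10p-HFSCs and of 36.7 and 69.3 in 48p-HFSCs. It was called higher with a log2 difference of 3.33 (SE 0.37, limma adjusted p = 0.0031), and its groups were as clearly separated.

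Sprr2a3 had an FPKM of 0.376 and 0.735 in 10p-HFSCs and of 24.6 and 16.9 in 48p-HFSCs. It had the largest log2 difference among the SPRR2 genes, 3.79 (SE 0.31, limma adjusted p = 0.0014). Sprr2a1 and Sprr2a2, which encode nearly the same protein, were listed at 0 in all libraries, and how reads that match several copies were assigned is not given in the sources used here. In the GENCODE transcripts, 35.8% of the read-length windows of Sprr2a3 occur in another gene of the set, against 92.4% for Sprr2a1 and 92.7% for Sprr2a2. The level of Sprr2a3 is therefore uncertain as the level of a single gene.

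Sprr2h had an FPKM of 0.0897 and 1.13 in 10p-HFSCs and of 8.98 and 9.60 in 48p-HFSCs, a log2 difference of 2.76 (SE 0.38, limma adjusted p = 0.0064). Its libraries of 10p-HFSCs were unlike each other, but both lay under both libraries of 48p-HFSCs. Sprr2i was the weakest of the 6, at 0.118 and 0.165 in 10p-HFSCs, compared with 1.14 and 1.51 in 48p-HFSCs, with a log2 difference of 1.02 (SE 0.22, limma adjusted p = 0.028). Its call was lost under TPM rescaling (log2 difference 0.87, adjusted p = 0.11) and under a correction for transcript length (0.29, adjusted p = 0.50), and without replicate 2 of 48p-HFSCs its log2 difference was 0.91, under the limit of 1. No read-length window of Sprr1a, Sprr1b, Sprr2h or Sprr2j-ps was shared with another gene. The windows were compared only as exact matches, so reads placed with mismatches are not covered. The other 10 SPRR genes did not exceed 0.270 FPKM in any library, and Sprr3, Sprr4 and Sprr2d were at 0 in all of them.

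The family was also summed, since some of its genes share reads. The 2 SPRR1 genes together had 16.1 and 13.6 FPKM in 10p-HFSCs and 224 and 250 FPKM in 48p-HFSCs. The 12 SPRR2 genes together had 4.22 and 6.67 FPKM in 10p-HFSCs and 71.9 and 97.9 FPKM in 48p-HFSCs. The ratio of means was 15.9 for SPRR1 and 15.6 for SPRR2, and under TPM rescaling the ratios were 10.99 and 10.72.

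**Figure D2:**
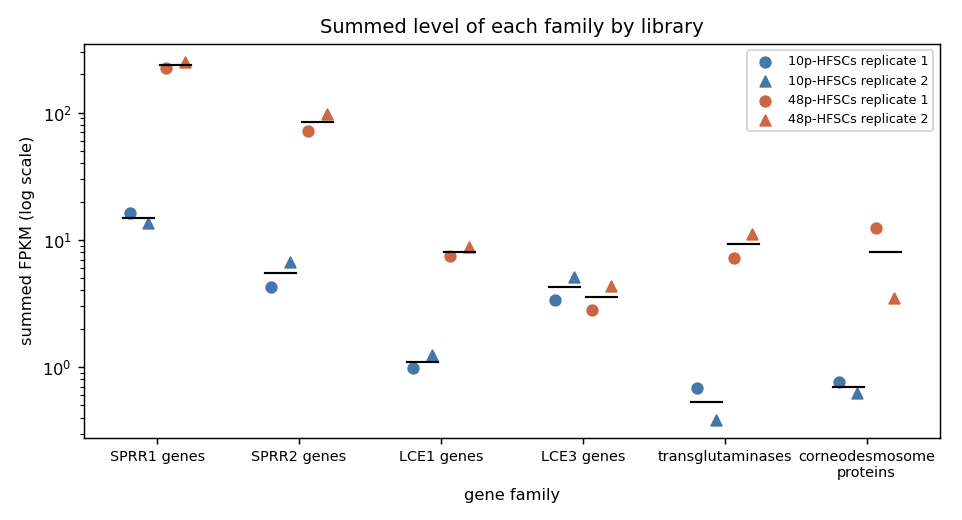
Summed FPKM of 6 gene groups in each library on a log axis, with a point per library and a line at each group's mean. The SPRR1 and SPRR2 sums lie more than 10-fold higher in both libraries of 48p-HFSCs, the LCE1 sums are separated by a smaller factor, and the LCE3 sums of the 2 groups overlap.

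The sequence just upstream of the start is shown for 4 genes with expression in these cells (Sprr1b, Sprr1a, Sprr2h and Ivl) and for 2 genes of the same differentiation program at 0 in every library (Lor and Krt10). Each is the 250 bases before the start of the RefSeq gene on GRCm38.p6 (mm10), 5′ to 3′ on the gene's strand. Capitals mark TGANTCA (N is any base), a loose form of the letters bound by AP-1 factors, and TATAAA, where the general transcription machinery binds. N is A in the match of Sprr1b, and G or C in those of the other genes shown. Each motif was searched on both strands.
Sprr1b, chr3:92438780-92439029, minus strand: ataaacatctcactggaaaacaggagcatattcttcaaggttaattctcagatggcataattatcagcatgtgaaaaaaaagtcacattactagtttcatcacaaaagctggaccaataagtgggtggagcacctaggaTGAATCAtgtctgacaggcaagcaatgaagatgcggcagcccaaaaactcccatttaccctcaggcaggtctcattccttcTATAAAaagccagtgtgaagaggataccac
Sprr1a, chr3:92485882-92486131, minus strand: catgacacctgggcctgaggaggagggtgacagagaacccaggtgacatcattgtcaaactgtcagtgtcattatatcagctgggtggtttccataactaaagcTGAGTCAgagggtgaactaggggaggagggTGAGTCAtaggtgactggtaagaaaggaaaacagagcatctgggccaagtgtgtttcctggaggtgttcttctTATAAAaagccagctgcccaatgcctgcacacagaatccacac
Sprr2h, chr3:92385435-92385684, plus strand: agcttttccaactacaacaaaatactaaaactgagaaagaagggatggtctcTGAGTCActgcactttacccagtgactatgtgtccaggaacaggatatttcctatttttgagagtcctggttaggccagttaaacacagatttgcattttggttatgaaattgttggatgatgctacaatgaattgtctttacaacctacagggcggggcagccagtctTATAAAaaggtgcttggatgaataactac
Ivl, chr3:92573736-92573985, minus strand: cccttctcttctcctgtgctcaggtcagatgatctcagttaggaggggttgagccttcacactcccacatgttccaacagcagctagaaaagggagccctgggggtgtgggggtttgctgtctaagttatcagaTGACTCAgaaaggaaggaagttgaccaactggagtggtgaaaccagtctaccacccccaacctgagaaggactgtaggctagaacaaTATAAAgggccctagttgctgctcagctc
Lor, chr3:92083143-92083392, minus strand: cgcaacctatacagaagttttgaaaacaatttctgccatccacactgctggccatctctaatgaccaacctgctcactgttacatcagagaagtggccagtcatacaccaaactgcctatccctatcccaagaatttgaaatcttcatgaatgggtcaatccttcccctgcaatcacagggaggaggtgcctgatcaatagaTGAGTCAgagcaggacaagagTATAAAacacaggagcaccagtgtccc
Krt10, chr11:99389365-99389614, minus strand: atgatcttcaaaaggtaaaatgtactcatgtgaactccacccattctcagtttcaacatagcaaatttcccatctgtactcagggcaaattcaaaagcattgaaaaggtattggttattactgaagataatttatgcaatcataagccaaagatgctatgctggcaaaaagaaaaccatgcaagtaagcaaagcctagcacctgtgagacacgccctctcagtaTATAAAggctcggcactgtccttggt
The TGANTCA match begins 111 bases before the start in Sprr1b, 146 and 116 in Sprr1a, 198 in Sprr2h, 116 in Ivl and 48 in Lor, and the window of Krt10 holds none. TATAAA begins 26 to 43 bases before the start in all 6. Lor, at 0 in all libraries, thus holds both motifs, as do Sprr1b, Sprr1a and Sprr2h, while the window of Sprr2a3, also called higher, holds neither.

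A window was found for 48 of the 57 genes. TGANTCA occurred in 14 of the 48 (29.2%), against 6.75% of the 32851 windows of this length in the mouse table. It occurred in 9 of 14 SPRR windows, 0 of 20 LCE windows and 5 of 14 windows of the other genes, which sets the families apart by sequence. TATAAA occurred in 10 of 14 SPRR windows and 4 of 20 LCE windows, against 12.4% of all windows. CACCC, the letters bound by KLF factors, occurred in 23 of the 48 windows (47.9%), against 52.0% of all windows. Of the 9 genes called higher that had a window, 5 held TGANTCA, and of the 18 genes listed at 0 that had a window, 3 did. Many of the genes at 0 are LCE genes, so these shares are not matched for family. Sprr2b, Sprr2d, Sprr2e, Sprr2f and Sprr2k held TGANTCA too and were at or near 0. A match says only that the letters are present, and neighbouring copies of a gene are not independent of each other.

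The LCE genes, whose products are added late on the inner side of the envelope, were mostly at or near 0. Of 21 LCE genes, 3 were tested, Lce1b and Lce1f were called higher, and Lce3c was not called. Lce1b was listed at 0 in both libraries of 10p-HFSCs and had an FPKM of 2.25 and 2.12 in 48p-HFSCs (limma adjusted p = 0.0052 on the log2(FPKM + 1) scale), and no fold is given for it. Lce1f had an FPKM of 0.190 and 0.265 in 10p-HFSCs and of 3.66 and 2.64 in 48p-HFSCs, a log2 difference of 1.75 (SE 0.25, limma adjusted p = 0.0075). Both genes were separated between the groups. Being under 1 FPKM in both libraries of 10p-HFSCs, they entered the test only through 48p-HFSCs. Both calls were lost under the length correction, with an adjusted p of 0.095 for Lce1b and 0.097 for Lce1f.

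Lce3c belongs to the LCE3 group, which is best known from wounded and inflamed skin. It had an FPKM of 2.97 and 4.53 in 10p-HFSCs and of 1.14 and 3.47 in 48p-HFSCs, so the groups overlapped, and the log2 difference was -0.60 (SE 0.42, limma adjusted p = 0.34). Under the length correction it was called lower (-1.35, adjusted p = 0.018). In its transcripts 24.0% of the read-length windows occur in another gene of the set, mostly Lce3f, so its level is uncertain too. The LCE1 genes summed to 0.975 and 1.23 FPKM in 10p-HFSCs and to 7.47 and 8.71 FPKM in 48p-HFSCs, while the LCE3 genes summed to 3.37 and 5.09 FPKM and to 2.79 and 4.33 FPKM. The LCE1 sums were thus separated between the groups and the LCE3 sums were not. Among the LCE genes that were not tested, Lce1g reached 2.62 FPKM in replicate 2 of 48p-HFSCs and was 0.543, 0.664 and 0.655 in the other libraries. Lce3a was 0.282 and 0.394 FPKM in 10p-HFSCs and 1.36 and 0.603 FPKM in 48p-HFSCs. The other 16 did not exceed 0.411 FPKM, and 9 of them were at 0 throughout.

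Among the scaffold genes, Evpl encodes envoplakin, a plakin that anchors the early envelope to desmosomes and keratin filaments. It had an FPKM of 2.57 and 2.55 in 10p-HFSCs and of 10.6 and 9.46 in 48p-HFSCs, a log2 difference of 1.63 (SE 0.26, limma adjusted p = 0.011). The libraries within each group were close, but the call was lost under TPM rescaling (1.18, adjusted p = 0.30). Ppl encodes periplakin, the partner of envoplakin. Its FPKM was 13.6 and 12.0 in 10p-HFSCs, compared with 22.9 and 9.10 in 48p-HFSCs, with the 2 libraries of 48p-HFSCs on either side of 10p-HFSCs. Its log2 difference of 0.17 (SE 0.44, limma adjusted p = 0.81) turned to -0.35 under TPM rescaling and to -0.45 without replicate 1 of 48p-HFSCs.

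Ivl encodes involucrin, the first protein cross-linked into the envelope and the usual marker of early terminal differentiation. It had an FPKM of 8.12 and 8.49 in 10p-HFSCs, and of 84.1 in replicate 1 but 13.1 in replicate 2 of 48p-HFSCs. Both libraries of 48p-HFSCs were above both of 10p-HFSCs, yet the log2 difference from the mean of 10p-HFSCs was 3.19 in replicate 1 and 0.60 in replicate 2, and Ivl was not called (1.90, SE 0.80, limma adjusted p = 0.14). Without replicate 2 of 48p-HFSCs the adjusted p was 0.0056. Krt15, a keratin of bulge and basal cells, was also unequal between these libraries, at 425 and 18.8 FPKM. Cnfn (cornifelin) was at 0 except for 0.638 FPKM in replicate 2 of 48p-HFSCs, and Lor was at 0 in all libraries.

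Tgm1 encodes the membrane-bound transglutaminase that cross-links involucrin, loricrin and SPRR proteins. Its FPKM was 0.0369 and 0.0268 in 10p-HFSCs, compared with 6.57 and 11.1 in 48p-HFSCs, a log2 difference of 3.21 (SE 0.31, limma adjusted p = 0.0021). It was thus close to 0 in 10p-HFSCs and well above it in both libraries of 48p-HFSCs. Tgm1 entered the test only through 48p-HFSCs, so its direction and its lack of overlap were fixed by the limit on FPKM. Its call held under TPM rescaling (3.02, adjusted p = 0.0014) and under the length correction (3.14, adjusted p = 0.0017). The other transglutaminases of the epidermis stayed low. Tgm3 was 0.620 and 0.329 FPKM in 10p-HFSCs and 0.284 and 0 FPKM in 48p-HFSCs, and Tgm5 did not exceed 0.355 FPKM.

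**Figure D3:**
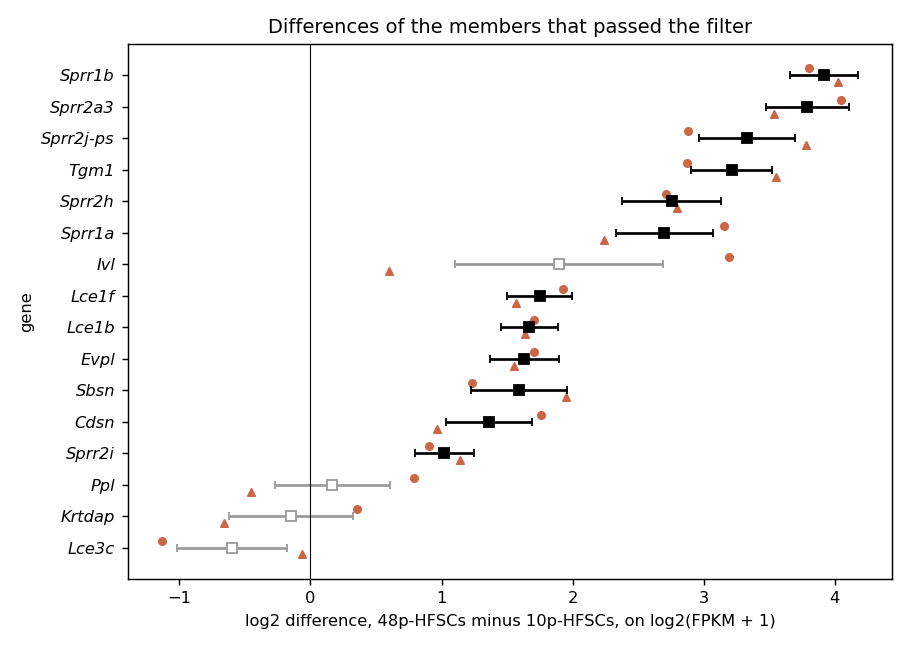
Log2 difference between 48p-HFSCs and 10p-HFSCs with its SE for the 16 tested genes (squares, filled where called), and the difference of each 48p-HFSCs library from the mean of 10p-HFSCs (circle for replicate 1, triangle for replicate 2). The 12 called genes have both libraries on the right of 0, and Ivl has its replicates at 3.19 and 0.60.

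Sbsn encodes suprabasin, a secreted protein of the suprabasal epidermis, and was the most abundant of the 57 genes at both passages. It had an FPKM of 94.6 and 104 in 10p-HFSCs and of 234 and 387 in 48p-HFSCs, a log2 difference of 1.59 (SE 0.36, limma adjusted p = 0.031). The groups were separated, with ranks within a library of 789 and 793 in 10p-HFSCs and of 343 and 372 in 48p-HFSCs, but without the limit on FPKM the adjusted p was 0.058. Sbsn overlaps the annotated noncoding gene Tmem147os. Of the read-length windows of Sbsn, 4.83% also occur in another gene in the same orientation. Reads of those windows cannot be told apart whatever the strand setting. How reads in the overlap were counted is not given in the sources used here. Krtdap, which encodes another secreted protein of the suprabasal epidermis and lies near Sbsn on chromosome 7, had an FPKM of 0.577 and 2.15 in 10p-HFSCs and of 1.86 and 0.412 in 48p-HFSCs. It overlapped fully between the groups (log2 difference -0.15, SE 0.47, limma adjusted p = 0.84), and its sign depended on the library. Calml3, a calmodulin-like protein of differentiating epithelium, did not exceed 0.482 FPKM.

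Cdsn encodes corneodesmosin, the adhesive protein added to desmosomes as they become corneodesmosomes. Its FPKM was 0.652 and 0.579 in 10p-HFSCs, compared with 4.48 and 2.16 in 48p-HFSCs, a log2 difference of 1.36 (SE 0.33, limma adjusted p = 0.037). Cdsn too entered the test only through 48p-HFSCs, which fixed its direction and its lack of overlap. It was the weakest of the calls by adjusted p, and it was lost under TPM rescaling (adjusted p = 0.20), under the length correction (adjusted p = 0.064) and without replicate 1 of 48p-HFSCs (log2 difference 0.97). It was lost also without the limit on FPKM (adjusted p = 0.082) and with a limit on the mean FPKM (adjusted p = 0.051). Dsg1a (desmoglein 1) had an FPKM of 0.0180 and 0.0504 in 10p-HFSCs and of 7.24 and 0.772 in 48p-HFSCs, with nearly all of the signal in a single library. Dsc1 (desmocollin 1) was 0.0925 and 0 FPKM in 10p-HFSCs and 0.744 and 0.528 FPKM in 48p-HFSCs. Casp14, a protease that acts on filaggrin during cornification, was 0.0459 and 0 FPKM in 10p-HFSCs and 1.03 and 0.639 FPKM in 48p-HFSCs. Both genes lay higher in each library of 48p-HFSCs, but did not reach 1 FPKM in 2 libraries and were not tested. In a fit with no limit on FPKM, none of the 22 further genes with a value above 0 was called, with a log2 difference of 0.83 for Casp14 (limma adjusted p = 0.030), of 0.64 for Dsc1 (adjusted p = 0.032) and of 1.89 for Dsg1a (adjusted p = 0.20).

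The keratins that define the spinous and granular layers were at or near 0. Krt1 and Krt10 were listed at 0 in every library, and Krt2, a keratin of the upper layers, was at 0 except for 0.0245 FPKM in replicate 1 of 48p-HFSCs. In the same libraries Krt5 stood at 1805 and 1473 FPKM in 10p-HFSCs and 8156 and 5120 FPKM in 48p-HFSCs, and its partner Krt14 at 1423 and 1217 FPKM and at 3896 and 2439 FPKM, and neither was called. In all, 19 of the 57 genes were at 0 in the 4 libraries. FPKM carry no read totals, so no detection limit can be set for these zeros.

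In the annotated genome (mm10, GENCODE M21) the epidermal differentiation complex was taken from S100a1 to S100a10, chr3:90511034-93564643. It held 41 of the 57 genes, of which 10 were tested, 8 were called higher and none lower, with a median log2 difference of 2.30. Among those called, Sprr1a, Sprr2a3, Sprr2i, Lce1b and Lce1f were under 1 FPKM in both libraries of 10p-HFSCs. They too could be tested only by being high in 48p-HFSCs. The other 29 symbols of the interval included 18 tested genes, of which 8 were called higher and 1 lower, with a median of 1.53, against 10.8% and 9.15% called among all genes tested. Of these 8, 6 were under 1 FPKM in both libraries of 10p-HFSCs and so had to be high in 48p-HFSCs to be tested. The median of 1.53 includes these 6. Of the 12 at 1 FPKM or more in both, 2 were called higher, against 6.04% of all genes tested that met this condition. Genes called higher were therefore found both inside and outside the SPRR and LCE families. At the end of the interval next to the start of S100a1, S100a1 itself (a calcium-binding protein) had an FPKM of 0.118 and 0.165 in 10p-HFSCs and of 32.7 and 66.4 in 48p-HFSCs, and S100a13 and S100a4 were also called higher. Pglyrp3, an antibacterial peptidoglycan-binding protein, had an FPKM of 0.485 and 0.678 in 10p-HFSCs and of 9.62 and 12.8 in 48p-HFSCs (log2 difference 2.94, limma adjusted p = 0.0020). S100a8, whose product is secreted by activated keratinocytes, was the 1 gene of the interval called lower, from 89.2 and 146 FPKM to 27.0 and 16.5 FPKM (-2.38, limma adjusted p = 0.010). Of the 4 called neighbours outside these lists, chosen after their values were seen, S100a2, 2310050C09Rik and Gm4858 were called higher, as was Prr9, at 0.0499 and 0 FPKM in 10p-HFSCs and 24.95 and 4.27 FPKM in 48p-HFSCs.

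**Figure D4:**
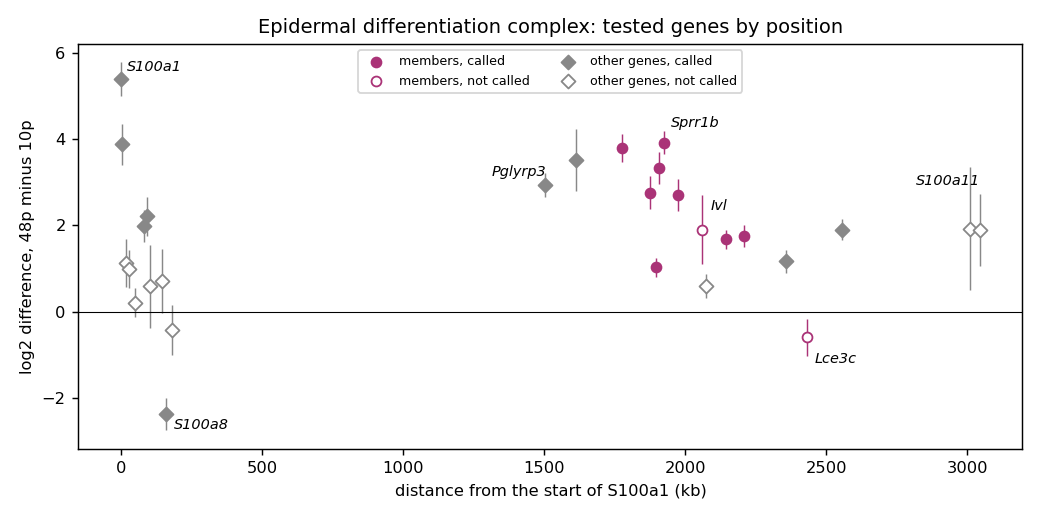
Log2 difference (48p-HFSCs minus 10p-HFSCs, bars are SE) of the 28 tested genes of the epidermal differentiation complex against the distance in kb from the start of S100a1, with genes of the set and other genes in separate colours and called genes filled. The SPRR genes stand together at log2 differences of 1.02 to 3.92, and the S100 genes at the left edge run from 5.38 for S100a1 to -2.38 for S100a8.

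Other genes of the cornification program were read from the same fit. Of 20 transcription factors of terminal differentiation, 15 were tested, 9 were called higher and none lower, against 10.8% and 9.15% of all genes tested. Of the 9, 5 were under 1 FPKM in both libraries of 10p-HFSCs and so entered the test only through 48p-HFSCs, and of the 8 factors at 1 FPKM or more in both, 2 were called higher. Zfp750 (a p63 target that activates late differentiation genes) had an FPKM of 1.09 and 0.651 in 10p-HFSCs and of 12.8 and 6.44 in 48p-HFSCs, a log2 difference of 2.45 (limma adjusted p = 0.0095). Grhl3, which directs barrier formation, had an FPKM of 1.12 and 0.636 and of 5.22 and 3.45 (1.499, limma adjusted p = 0.022), and Klf4, a factor needed for the skin barrier, 6.06 and 5.43 and 23.4 and 13.4 (1.48, limma adjusted p = 0.031). The factors called higher also included Hopx (3.86), Ehf (2.39), Ahr (2.35), Ovol1 (2.17) and Gata3 (1.93), each as a log2 difference. Trp63, the master regulator of basal keratinocytes, was not called, with 60.4 and 42.0 FPKM in 10p-HFSCs and 124 and 52.7 FPKM in 48p-HFSCs (0.67, limma adjusted p = 0.33).

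Genes of lipid synthesis and of proteolysis were counted in the same way. Of 18 barrier lipid genes, 10 were tested, 3 were called higher and 1 lower, against 10.8% and 9.15% of all genes tested. Of the 9 at 1 FPKM or more in both libraries of 10p-HFSCs, 2 were called higher. Cers3, the ceramide synthase of the epidermal barrier, had an FPKM of 0.305 and 0.246 in 10p-HFSCs and of 29.7 and 19.0 in 48p-HFSCs (log2 difference 4.28, limma adjusted p = 0.0011). Cers3 thus entered the test only through 48p-HFSCs. Smpd1 (1.07) and Degs2 (1.83) were also called higher, and Fa2h, which hydroxylates fatty acids of ceramides, was called lower (-1.95). Of 22 cornification proteases and inhibitors, 17 were tested, 6 were called higher and 1 lower, against the same shares of all genes tested. The 6 were Stfa3 (3.35), Klk11 (2.44), Klk8 (1.60), St14 (1.36), Capn1 (1.11) and Csta1 (1.05), as log2 differences. Padi1, an enzyme that citrullinates keratins and filaggrin, was called lower (-1.75). Stfa3 and Klk11 were under 1 FPKM in both libraries of 10p-HFSCs. Of the 13 at 1 FPKM or more in both, 4 were called higher. Over these lists and the 23 other genes of the complex, 22 of 56 tested genes were called higher and 3 lower, and 11 of the 22 were under 1 FPKM in both libraries of 10p-HFSCs. Of the 41 at 1 FPKM or more in both, 9 were called higher, against 6.04% of all genes tested that met this condition. Under TPM rescaling only 11 were called higher, and among the 9 transcription factors only Hopx and Ehf kept an adjusted p under 0.05.

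The cells were checked against markers of their labelled type. Krt5, Krt14 and Itga6 were expressed in all libraries, and Itga6 was called higher (log2 difference 1.77). Cd34, on which the cells were sorted, did not exceed 0.234 FPKM, and Lhx2, Lgr5 and Nfatc1 did not exceed 0.0303 FPKM, so these defining markers were at or near 0 in RNA of both groups. Sox9 (-1.71) and Tcf3 (-1.02) were called lower. Markers of other cells also differed beside the genes described here. The 4 keratins of simple epithelium summed to 337 to 393 FPKM in 10p-HFSCs and to 1442 to 2690 FPKM in 48p-HFSCs, and Krt18 (8.89) and Krt19 (2.64) were called higher. Of 6 leukocyte markers, Cd68 (3.03), Lyz2 (1.33) and Cd74 (5.98) were called higher, with sums of 7.51 to 7.94 FPKM in 10p-HFSCs and of 118 to 183 FPKM in 48p-HFSCs, but Ptprc did not exceed 0.0711 FPKM and Cd3e and Tyrobp were at 0. Of 7 fibroblast markers, Vim (-6.37) and Col1a2 (-6.01) were called lower, Col1a1 did not exceed 0.903 FPKM, Dcn and Lum were at 0, and the sums were 353 to 388 FPKM in 10p-HFSCs and 2.50 to 3.32 FPKM in 48p-HFSCs. Of 7 sebocyte markers Scd1 was called lower (-1.81), and no other was called. The sums were 75.9 to 88.9 FPKM in 10p-HFSCs and 22.5 to 27.5 FPKM in 48p-HFSCs. Most of each sum was Scd1 alone, at 87.2 and 74.0 FPKM in 10p-HFSCs and 22.5 and 21.9 FPKM in 48p-HFSCs. None of 12 hair shaft and inner root sheath keratins and 1 of 6 melanocyte markers passed the limit on FPKM, none was called, and Dct was at 0. The part of these cells or markers in the differences of the SPRR genes and their neighbours was not tested.

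Among the libraries, replicate 2 of 48p-HFSCs stood apart. Its FPKM values summed to 1414953, against 581516 to 719012 in the other 3 libraries. The steps between its low values were 2.141 times those of replicate 1 of 10p-HFSCs. Whether these steps reflect fewer reads or a scaling between libraries cannot be told from FPKM. TPM rescaling shifted the median log2 difference of all genes from -0.03 to -0.55, and the differences given under that scaling include the shift, so that Ppl, at -0.35, lay above the median gene. The tested genes of the set were short, with a median exon length of 818 bp against 4366 bp for all genes tested. Between the replicates of 48p-HFSCs, 5 of the 9 tested genes under 1 kb were higher in replicate 2, as were 2 of the 7 longer ones, and the differences of at least 2-fold were 5 of 16 in 48p-HFSCs and 2 of 16 in 10p-HFSCs.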

How the data were processed

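Polyadenylated RNA of 10p- and 48p-HFSCs was sequenced from one end, with 2 libraries per group. The authors mapped the reads to mm10 and deposited 1 FPKM value per gene symbol and library. The submitters' processing notes name TopHat2 2.1.1, Bowtie2 2.2.8, SAMtools 0.1.18 and Cuffdiff 2.2.1. The annotation, the strand setting and the treatment of reads with several matches are not given in the sources used here. FPKM are not counts and hold no read totals, so no count test, interval or detection floor was used. The step between low values was read from the most common ratio of values under 0.3 FPKM to those of replicate 1 of 10p-HFSCs.

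Groups and replicates were taken from the labels. FPKM were compared as log2(FPKM + 1) with limma 3.58.1 (lmFit, and eBayes with a variance trend) in R 4.3.3, for genes at 1 FPKM or more in at least 2 libraries. Benjamini-Hochberg adjustment ran over all 11018 genes, and the fit was tested on simulated data. Positions and exon lengths came from GENCODE M21, for 96.3% of the genes tested, and upstream sequences from RefSeq (GRCm38.p6), for 48 of the 57 genes of the set. Tables were made with Python 3.11.15 and pandas 2.3.3.

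The genes of the set, the other lists and the tests were chosen with earlier results of these data known. All genes of the set that passed the FPKM limit were described. Of the others, values were given for those over 0.5 FPKM in any library and for the main markers, and of the other lists called genes (at most 8 per list) and fixed markers were named, except that 1 gene of the other lists is not reported here. Alternatives were a pseudocount of 0.1, no FPKM limit, a mean of at least 1 FPKM, TPM, median-of-ratios scaling, a constant variance prior, a block for the replicate number, no fold limit, a correction for exon length, both together, and leaving out each library.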

Additional observations from a re-analysis of the deposited data

How the results depend on the processing

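The number of genes of the set called higher (12) was 9 under TPM and 8 with the length correction. It was 10 without the FPKM limit and with a mean of at least 1 FPKM. It stayed at 12 with a pseudocount of 0.1 and under median-of-ratios scaling, which left the median log2 difference of all genes at -0.03. It was 0 without either library of 10p-HFSCs (limma, with 11 and 10 of 16 genes at an unadjusted p under 0.05), 11 without replicate 1 and 12 without replicate 2 of 48p-HFSCs. No gene was called lower except Lce3c, so that the count was 1 with the length correction and 1 with the length correction and the block together. The cause was not tested. Of 223 values of single genes under an alternative, 176 kept their direction and side of the threshold, 38 lost and 5 gained the threshold, and 4 reversed. The reversals were Ppl (-0.35 under TPM, -0.45 without replicate 1 of 48p-HFSCs) and Krtdap (0.35 without replicate 2 of 10p-HFSCs, 0.36 without replicate 2 of 48p-HFSCs), none of them called. With 1 library left out, Ppl ranged from -0.45 to 0.79 and Krtdap from -0.66 to 0.36. Sprr1a, Sprr1b, Sprr2a3, Sprr2h, Sprr2j-ps and Tgm1 were called under every alternative except the 2 that left out a library of 10p-HFSCs. Both groups carry replicate numbers 1 and 2, but the labels do not say what they mark, and with 2 numbers the pairing is not established. Libraries of 1 number deviated from their group mean with a correlation of 0.41 over 11018 genes. With a block for the number, 13 genes of the set were called higher, Ivl being the addition (adjusted p = 0.0056), and 0 lower. The larger step between low values limits most the low values of replicate 2 of 48p-HFSCs.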
